A study of Mus musculus with 4 samples.

Results

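Brown adipocyte fate factors are the transcription factors and chromatin regulators that commit a precursor to the brown fat lineage and keep that identity in the adult tissue. The set described here holds 10 genes, Ebf1, Ebf2, Ebf3, Prdm16, Zfp516, Ehmt1, Irf4, Zic1, Lhx8 and Tbx15, chosen by name, and each of them was found among the 55387 gene rows of every library. RNA of brown fat was sequenced from 4 males on a C57BL/6 background at an age of 15 weeks. The 2 control mice carried floxed Sox4 alleles without Cre (Sox4f/f, given as WT in the sample labels), and their 2 littermates carried the same floxed alleles together with a Cre recombinase expressed from Myf5 (labelled Sox4-MKO). Myf5 is active in precursors of skeletal muscle as well as of brown adipocytes, so this Cre acts in both lineages. The labels call the cells adipocytes of brown fat, whereas the protocol describes whole tissue, and the values below are those of a mixture of cells.

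Brown adipocytes of the interscapular depot descend from somite cells that also give rise to muscle and dermis. EBF2 opens chromatin at brown fat genes and brings PPARγ, the general adipogenic receptor, to them. PRDM16 binds C/EBPβ, PGC-1α and the histone methyltransferase EHMT1, and the zinc finger protein ZFP516 and the interferon regulatory factor IRF4 act on thermogenic promoters together with PRDM16 or PGC-1α. ZIC1 and LHX8 are markers of the classical brown depot, and TBX15 is a T-box factor of brown fat, subcutaneous fat and glycolytic muscle fibres. The question was how the RNA of these factors differs in brown fat when Sox4, which encodes an HMG-box transcription factor, is deleted in the Myf5 lineage.

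The authors deposited levels in FPKM, in which fragments are scaled by transcript length and by the mapped fragments of the library, so that levels of different genes can be compared per length. The depth of each library was read from the spacing of its lowest values, which gave rough estimates of 12000000 to 15900000 fragments. Ucp1, the uncoupling protein that defines brown fat, had between 733 and 1935 FPKM. Mitochondrially encoded genes took 21.6% and 17.7% of the summed FPKM in Sox4f/f and 9.29% and 13.6% in the mice labelled Sox4-MKO. The Sox4f/f mice had Sox4 values of 1.98 and 1.06 FPKM, and the mice labelled Sox4-MKO 0.98 and 3.06 FPKM. Sox4 was thus not lower in the latter, and every direction below follows the labels and not a visible loss of Sox4 RNA. The Sox4 values rest on roughly 59 to 230 fragments per library, and an antisense gene, Gm26735, overlaps its exonic sequence. The paper reports greatly reduced SOX4 protein in brown fat of younger Sox4-MKO males, which these RNA values do not measure. The summed FPKM of 8 skeletal muscle markers was 202 and 747 in Sox4f/f and 14480 and 2487 in the mice labelled Sox4-MKO. In whole tissue, fewer cells of a type and less RNA per cell cannot be told apart.

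The study designed qPCR primers for Ebf2 and Prdm16, and these locate the RNA of both factors on the genome. They are printed because Ebf2 carried the one lower call among the 10 factors and Prdm16 the widest spread between control mice. Letters are 5′ to 3′, and positions are those of the amplified span on GRCm38 with GENCODE M21 transcripts.
Ebf2 forward primer: gctgcgggaaccggaacgaga
Ebf2 reverse primer: acacgacctggaaccgcctca
Prdm16 forward primer: cgcggaagaaccacgtctac
Prdm16 reverse primer: tgccaccttccgcttttcta
The Ebf2 pair flanks 138 nt of transcript that spans 3 exons (chr14:67247031-67387884, plus strand) and is present in 3 coding transcripts, as exons 7 to 9 of 17 in 2 of them and as exons 6 to 8 of 16 in the other. The Prdm16 pair spans exons 9 and 10 (chr4:154337706-154340859, minus strand) and gives 161 or 164 nt, depending on the transcript. Both amplicons cross introns and lie within coding genes, Ebf2 at chr14:67233292-67430918 on the plus strand and Prdm16 at chr4:154316125-154636873 on the minus strand.

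Promoter windows from RefSeq (GRCm38.p6) were searched for 7 of the 10 factors, with 8 start sites. Ebf2, Tbx15 and Zfp516 were not part of the search, so the counts below do not cover them. The 250 bases before each start were searched on both strands. The motifs were AACAAAG, a core motif of SOX proteins, and CCCNNGGG, a core motif of EBF proteins. AACAAAG was in 0 of the 8 windows and in 5.03% of 32851 mouse promoter windows. CCCNNGGG was in 1 of the 8 and in 11.8% of all windows. These letters describe the windows only, and say nothing of binding elsewhere. The window of Lhx8 is shown as that of a factor with higher RNA in the mice labelled Sox4-MKO, and the window of Ebf3 as the one with an EBF core, which is in capitals and begins 21 bases before the start.
Lhx8, chr3:154330561-154330810, minus strand: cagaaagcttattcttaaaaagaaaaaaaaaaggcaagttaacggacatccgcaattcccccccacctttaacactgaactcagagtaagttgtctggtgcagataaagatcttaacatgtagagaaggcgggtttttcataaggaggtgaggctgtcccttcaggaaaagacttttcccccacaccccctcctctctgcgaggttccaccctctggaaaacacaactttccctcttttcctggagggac
Ebf3, chr7:137314446-137314695, minus strand: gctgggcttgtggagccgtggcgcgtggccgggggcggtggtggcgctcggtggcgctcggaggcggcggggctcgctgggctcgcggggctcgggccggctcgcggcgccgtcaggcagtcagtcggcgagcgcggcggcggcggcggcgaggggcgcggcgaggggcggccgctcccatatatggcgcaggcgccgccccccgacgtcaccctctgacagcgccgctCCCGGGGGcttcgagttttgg
The windows also differ in base composition, with 46.0% G and C for Lhx8 and 80.0% for Ebf3.

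In the mice labelled Sox4-MKO, Ebf2 was lower and Tbx15 and Lhx8 were higher than in Sox4f/f at an unadjusted p under 0.05 in limma, and the other 7 factors did not pass. Among the 12877 genes tested, 8.28% were lower (1066) and 7.95% higher (1024) by the same rule. Centring each library on adipocyte markers moved each log2 fold change by the same amount, the median of all genes from -0.05 to 0.07, and the calls to 166 lower and 1037 higher. A common sum without mitochondrial genes and Ucp1 gave 746 lower and 1322 higher. After Benjamini-Hochberg adjustment over all tested genes, 0 of the 10 passed 0.05, as did 0% of all genes in that limma fit. The adjusted p of the factors ran from 0.212 to 0.919. The values of both genotypes did not overlap for 2 lower factors, Ebf2 and Zfp516, beside 29.6% of all tested genes, and for 2 higher factors, Tbx15 and Lhx8, beside 21.7%. Lhx8 averaged over 1 FPKM only in the genotype in which it is high and entered the test through that group. The other 9 factors exceeded the limit in both genotypes. The median log2 fold change was -0.05 over the factors and -0.05 over all genes tested, so as a group the factors were centred where the other genes were.

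**Figure D1:**
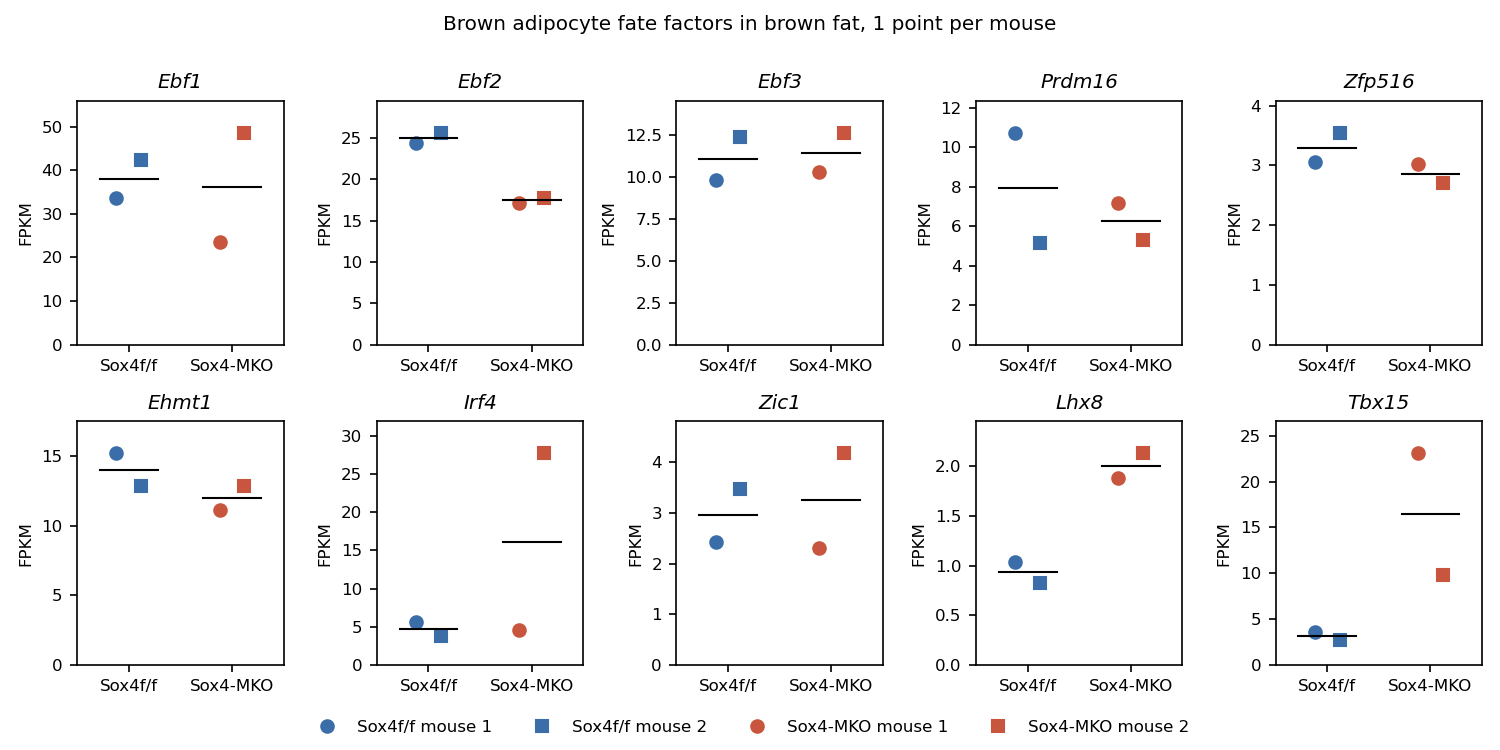
Level of each fate factor in FPKM (vertical axis, linear and from 0, a separate scale per gene) in brown fat of Sox4f/f mice (blue) and mice labelled Sox4-MKO (red). Each point is 1 mouse and the line is the mean of 2. Ebf2 and Zfp516 are lower and Tbx15 and Lhx8 higher without overlap, and Irf4 reaches 27.8 FPKM in 1 mouse only.

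The EBF proteins share a DNA-binding domain, and Ebf1, Ebf2 and Ebf3 are the members of this family in the set. Ebf2 had 24.4 and 25.6 FPKM in the Sox4f/f mice and 17.1 and 17.8 FPKM in the mice labelled Sox4-MKO. Both control mice lay above both others, and within a genotype the mice differed by at most 1.05-fold. The mean fell by 30.3%, from 25.0 ± 0.86 to 17.4 ± 0.47 FPKM (SD over 2 mice each). Its log2 fold change was -0.50 with a standard error of 0.12, an unadjusted p of 0.0112 and an adjusted p of 0.219 in limma. Each value rests on an estimated 1100 to 1700 fragments. An antisense gene that overlaps its exons, Gm10860, was listed at 0 in each library.

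The Ebf2 difference held its sign in each analysis, from -0.53 to -0.46 with 1 library left out. Without Sox4f/f mouse 1 or without Sox4f/f mouse 2 only 1 control is left, and the standard error rose from 0.12 to 0.18 and 0.17. The Ebf2 difference then no longer passed an unadjusted 0.05 in limma. It also did not pass when the libraries were centred on adipocyte marker genes, which gave -0.37 with a p of 0.199.

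Ebf1 (chr11:44617317-45008091, plus strand), known for its role in B cell and adipocyte development, was the most abundant of the factors. It had 33.5 and 42.3 FPKM in Sox4f/f and 23.6 and 48.6 FPKM in the mice labelled Sox4-MKO, which held both the lowest and the highest value. The log2 fold change of -0.15 ± 0.37 (standard error) had an unadjusted p of 0.708. Without mouse 2 labelled Sox4-MKO it was -0.65 and passed, with an unadjusted p of 0.04, and without mouse 1 it was 0.36. Ebf3 (chr7:137193673-137314445, minus strand) had 9.81 and 12.4 FPKM in Sox4f/f and 10.3 and 12.6 FPKM in the mice labelled Sox4-MKO, in nearly the same range. Its log2 fold change was 0.04 ± 0.19. Ebf4 was not tested, with at most 0.27 FPKM. Coding transcripts of the 4 EBF genes shared 0 windows of 50 nt, so no stretch of that length is common to a pair of them.

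Because a share within a library does not depend on scaling, each EBF gene was also expressed as a percentage of the summed FPKM of Ebf1, Ebf2 and Ebf3. Ebf2 made up 36.0% and 31.9% of the sum in Sox4f/f and 33.5% and 22.5% in the mice labelled Sox4-MKO. The values overlapped, since mouse 1 labelled Sox4-MKO lay between the controls. The difference in mean share was -5.96 percentage points (exact two-sided permutation p = 0.667), and -0.43 points without mouse 2 labelled Sox4-MKO. Ebf3 made up 14.5% and 15.4% in Sox4f/f and 20.2% and 16.0% in the mice labelled Sox4-MKO, without overlap. That gave an exact permutation p of 0.333, the smallest that 2 against 2 mice allow. Ebf1 exceeded Ebf2 by 1.37-fold and 1.65-fold in the control mice and by 1.38-fold and 2.73-fold in the others. The lower Ebf2 value was thus one of FPKM level, and a lower share of the family was not shown.

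Prdm16, the zinc finger coregulator of brown fat identity, had 10.7 and 5.12 FPKM in Sox4f/f and 7.19 and 5.32 FPKM in the mice labelled Sox4-MKO. The control mice differed from each other by 2.09-fold, more than any other factor did among controls, and enclosed both other values. The log2 fold change was -0.24 ± 0.36 (standard error) with an unadjusted p of 0.546, and it turned to 0.23 without Sox4f/f mouse 1. Ehmt1 (chr2:24789928-24919614, minus strand), the methyltransferase partner of PRDM16, had 15.2 and 12.8 FPKM in Sox4f/f and 11.2 and 12.9 FPKM in the mice labelled Sox4-MKO, so that the ranges overlapped by a small margin. Its log2 fold change was -0.20 ± 0.16. Zfp516 had 3.05 and 3.55 FPKM in Sox4f/f and 3.02 and 2.70 FPKM in the mice labelled Sox4-MKO. The genotypes did not overlap, but the nearest values were 3.05 and 3.02 FPKM, and the log2 fold change of -0.15 ± 0.19 had an unadjusted p of 0.448.

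Irf4 (chr13:30749226-30766976, plus strand), which is induced in fat by fasting and cold and is also a lymphocyte factor, had 5.63 and 3.74 FPKM in Sox4f/f and 4.54 and 27.8 FPKM in the mice labelled Sox4-MKO. The other values were close together, whereas mouse 2 labelled Sox4-MKO was 6.11-fold above its genotype mate. The log2 fold change of 1.17 ± 0.81 (standard error) had an unadjusted p of 0.213. Without that mouse it was -0.02, and without mouse 1 labelled Sox4-MKO it was 2.36 with an unadjusted p of 0.00323. Centring on adipocyte markers gave 1.30 with an unadjusted p of 0.0372.

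The summed FPKM of 6 B cell markers was 2.01 and 1.34 in Sox4f/f and 0.47 and 2.39 in the mice labelled Sox4-MKO. No single B cell marker exceeded 0.87 FPKM, and the defining markers Ms4a1 and Cr2 were at 0 in at least 1 library each. The B cell sum was highest in the mouse with the highest Irf4, and the part of B cells in that value was not tested. The summed FPKM of 6 macrophage markers was 152 and 233 in Sox4f/f and 317 and 320 in the mice labelled Sox4-MKO, of which only the latter mouse had high Irf4.

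Tbx15 (chr3:99240381-99354259, plus strand) showed the largest log2 fold change of the 10 factors in the fit of 4 libraries. It had 3.62 and 2.73 FPKM in Sox4f/f and 23.1 and 9.81 FPKM in the mice labelled Sox4-MKO, without overlap. The mean rose 5.19-fold, from 3.17 ± 0.63 to 16.5 ± 9.41 FPKM (SD over 2 mice each), and the latter mice differed from each other by 2.36-fold. The log2 fold change was 1.96 with a standard error of 0.42, an unadjusted p of 0.00669 and an adjusted p of 0.212 in limma. It was 1.38 without mouse 1 labelled Sox4-MKO and had an unadjusted p of 0.056 without Sox4f/f mouse 2. Without moderation of the variance the unadjusted p was 0.082.

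Skeletal muscle markers moved with Tbx15. Of the 8 markers, 7 were higher at an unadjusted p under 0.05 in limma, beside 7.95% of all tested genes. The median log2 fold change of the 8 was 3.83, and the exception, Myh4, overlapped between genotypes. The mouse with the highest Tbx15 also had the highest muscle sum, 14480 FPKM, but the order differed among controls, where the mouse with more Tbx15 had the lower sum. No muscle marker was at 0 in any library. The part of muscle RNA in the Tbx15 difference was not tested.

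Lhx8 (chr3:154306294-154330659, minus strand) was the least abundant factor in both genotypes. It had 1.04 and 0.83 FPKM in Sox4f/f and 1.88 and 2.13 FPKM in the mice labelled Sox4-MKO, without overlap, from roughly 21 to 70 fragments per library. The mean rose 2.15-fold, from 0.93 ± 0.15 to 2.00 ± 0.18 FPKM (SD over 2 mice each). On the log2 scale the change was 0.64 with a standard error of 0.22, an unadjusted p of 0.0374 and an adjusted p of 0.276 in limma. This scale adds 1 to each FPKM and understates the change of so low a gene, and a pseudocount of 0.01 gave 1.10. With no FPKM limit, so that the filter did not depend on either genotype, the unadjusted p was 0.0374 and the adjusted p 0.403 in limma. It passed an unadjusted 0.05 in 1 of the 4 fits with a library left out, that without mouse 1 labelled Sox4-MKO, and not with quantile normalization, where p was 0.109. The unadjusted p was 0.0726 after centring on adipocyte markers.

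Zic1 (chr9:91358058-91365810, minus strand) had 2.43 and 3.48 FPKM in Sox4f/f and 2.31 and 4.18 FPKM in the mice labelled Sox4-MKO, which enclosed the controls. Its log2 fold change was 0.08 ± 0.30 (standard error), with a sign that turned in some analyses. Its neighbour Zic4 shares exonic sequence on the opposite strand. Zic4 had 1.51 and 1.52 FPKM in Sox4f/f and 0.85 and 0.80 FPKM in the mice labelled Sox4-MKO, with an unadjusted p of 0.094 in limma. Its mean exceeded 1 FPKM only in Sox4f/f, so Zic4 entered the test through the genotype in which it is high. The labels describe a stranded library and the methods an unstranded kit, so fragments of Zic1 and Zic4 from the shared sequence may not have been told apart.

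**Figure D2:**
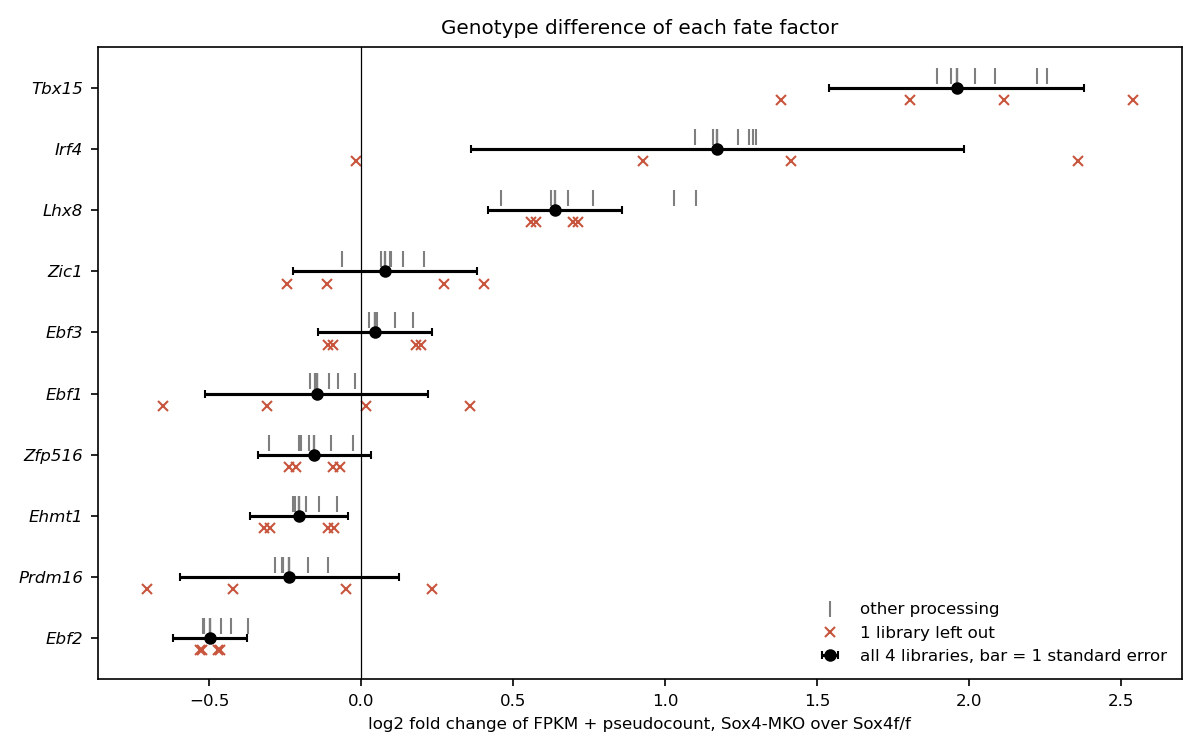
Log2 fold change of FPKM plus a pseudocount, mice labelled Sox4-MKO over Sox4f/f (horizontal axis), for each fate factor. Black points are the fit of 4 libraries with a bar of 1 standard error, grey ticks other processing and red crosses fits with 1 library left out. Each fit puts Ebf2 below 0 and Lhx8 and Tbx15 above 0, and leaving out 1 library moves Irf4 between -0.02 and 2.36.

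The order of levels was led by Ebf1 and ended with Lhx8 in both genotypes. In Sox4f/f the means ran Ebf1, Ebf2, Ehmt1, Ebf3, Prdm16, Irf4, Zfp516, Tbx15, Zic1 and Lhx8. The ranges of Ebf3 and Prdm16, of Prdm16 and Irf4, and of the neighbours among Zfp516, Tbx15 and Zic1 overlapped, and the other neighbours were separate. In the mice labelled Sox4-MKO, Tbx15 had the third highest mean, 16.5 FPKM, and Irf4 the fourth, 16.2 FPKM, but their ranges overlapped with each other, Tbx15 with that of Ebf2 and Irf4 with that of Ehmt1. In Sox4f/f, Tbx15 had the eighth.

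**Figure D3:**
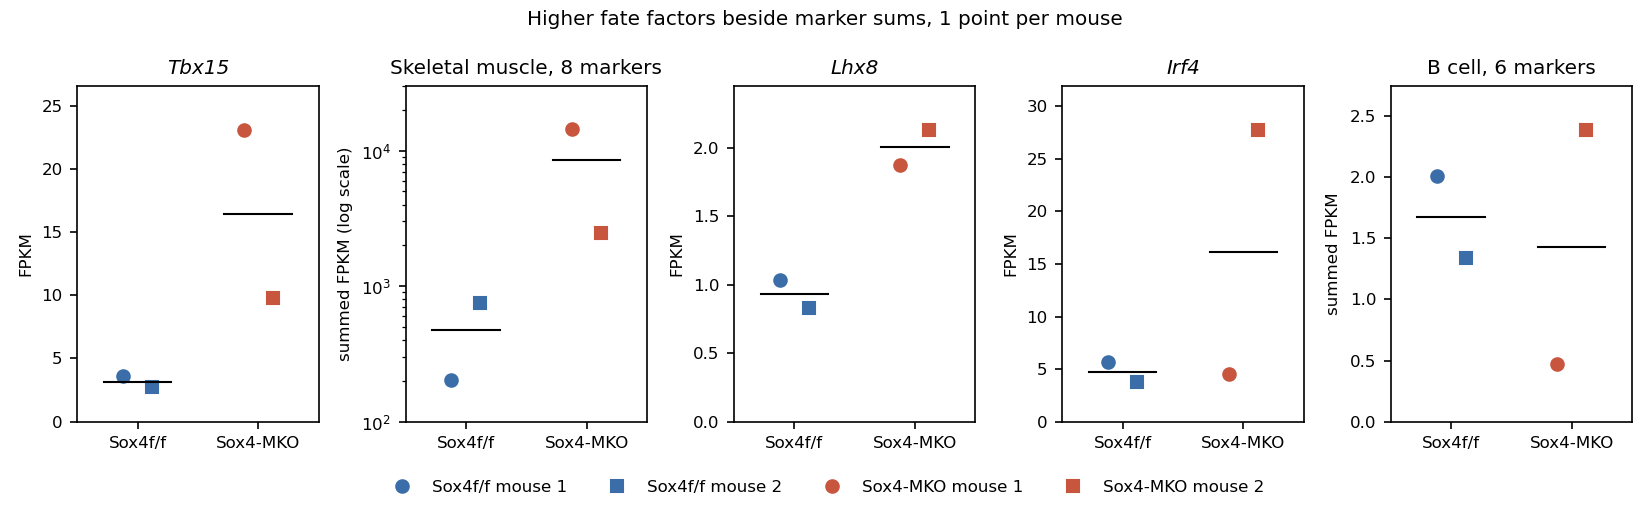
FPKM of Tbx15, Lhx8 and Irf4 and summed FPKM of 8 skeletal muscle markers (log axis) and 6 B cell markers, in Sox4f/f mice (blue) and mice labelled Sox4-MKO (red). Each point is 1 mouse and the line is the mean. The muscle sum is highest where Tbx15 is highest, and the B cell sum stays at or below 2.39 FPKM while Irf4 reaches 27.8 FPKM.

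Paralogues of the factors mostly did not pass the test. Of 8 tested PRDM genes (Prdm2, Mecom, Prdm4, Prdm9, Prdm10, Prdm11, Prdm15 and Prdm16), 0 passed an unadjusted 0.05 in limma, with log2 fold changes from -0.36 to 0.28. Among 8 IRF genes, Irf3, an antiviral regulator, was lower, with 48.8 and 51.4 FPKM in Sox4f/f and 31.2 and 40.1 FPKM in the mice labelled Sox4-MKO (log2 fold change -0.49, unadjusted p of 0.0322). Irf5 had a log2 fold change of 0.75 and an unadjusted p of 0.055, and the values for Irf1, Irf2, Irf7, Irf8 and Irf9 lay between -0.17 and 0.33. Of 4 tested T-box genes only Tbx15 passed in that fit, while Tbx2, Tbx3 and Tbx5 had log2 fold changes of -0.14, -0.75 and -0.54. Lhx6, the other LIM-homeobox gene tested, had 0.13. The difference between a factor and its paralogues was not tested.

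On the log2(FPKM + 1) scale, the genes most like Ebf2 over the 4 libraries were Zic4, Cebpa and Ehmt2. They were sought among 76 tested genes of the factor, family, partner, somite lineage, brown-selective and white and beige lists. Likeness was the Euclidean distance between centred log2(FPKM + 1) profiles, which was 0.086, 0.15 and 0.20 for these genes. Zic4 is a low gene, whose change is understated when 1 is added. Its mean fell from 1.52 to 0.82 FPKM, and that of Ebf2 from 25.0 to 17.4 FPKM. On the scale used, their log2 fold changes were -0.46 and -0.50. Zic4 was in the pool only because its control mean exceeded 1 FPKM. Likeness with another pseudocount was not tested. For Prdm16 the nearest were Prdm4, Irf7 and Tbx2, at distances of 0.48, 0.52 and 0.59.

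Partners and modifiers of the factors were lower more often than higher. Of 21 tested genes of that list, 5 were lower and 1 higher at an unadjusted p under 0.05 in limma. Over all tested genes, 8.28% were lower and 7.95% higher. The median log2 fold change was -0.27 in the list against -0.05 over all genes. Ppargc1b, the PGC-1β coactivator of mitochondrial genes, had 36.0 and 36.3 FPKM in Sox4f/f and 14.7 and 17.6 FPKM in the mice labelled Sox4-MKO, a log2 fold change of -1.12 ± 0.14 (standard error). Ppargc1a, the cold-inducible coactivator PGC-1α, had 48.2 and 22.4 FPKM in Sox4f/f and 13.2 and 14.2 FPKM in the mice labelled Sox4-MKO, with a wide gap between controls and a log2 fold change of -1.21. Cebpb, a partner of PRDM16 at the start of brown fat commitment, had 83.2 and 123 FPKM in Sox4f/f and 46.0 and 62.7 FPKM in the mice labelled Sox4-MKO, a log2 fold change of -0.90. The lower count was 3 after centring on adipocyte markers, where 166 of all tested genes were called lower. It also changed when 1 library was left out, which leaves 1 mouse in a genotype.

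Of 16 brown-selective genes, targets of the brown fat program, 15 were tested. Of these, 10 were lower and 0 higher (limma, unadjusted p under 0.05, 0 at the adjusted threshold), with a median log2 fold change of -0.86. By the same unadjusted rule, 8.28% of all tested genes were lower and 7.95% higher. Slc27a2, a fatty acid transporter and acyl-CoA synthetase, had 125 and 52.4 FPKM in Sox4f/f and 37.1 and 32.0 FPKM in the mice labelled Sox4-MKO, and passed with an unadjusted p of 0.04. Dio2, the deiodinase that activates thyroid hormone, had 51.9 and 42.8 FPKM against 10.1 and 33.5 FPKM, and Gk, glycerol kinase, had 66.0 and 63.5 FPKM against 15.2 and 50.7 FPKM, and neither passed. Of 13 white and beige fate genes, 7 were tested, of which 5 were higher and 0 lower. The other 6, with Tmem26, Tbx1 and Cited1 among them, were below the FPKM limit. The median log2 fold change was 1.36 over the 7 tested genes. With no FPKM limit 11 genes were tested, of which 5 were higher, and the median was 0.74. Retn, which encodes resistin, had 137 and 111 FPKM in Sox4f/f and 425 and 510 FPKM in the mice labelled Sox4-MKO. Wfdc21 had 5.23 and 1.98 against 39.2 and 15.3 FPKM, and Agt, angiotensinogen, had 4.01 and 1.37 against 6.18 and 12.6 FPKM. Several genes of these lists are ones the study shows from these same libraries, so their direction is not independent evidence. The count of higher white and beige genes was 1 without moderation of the variance on logged FPKM, where 553 of all tested genes were called higher. It also fell in some fits with 1 library left out, which leave 1 mouse in a genotype.

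**Figure D4:**
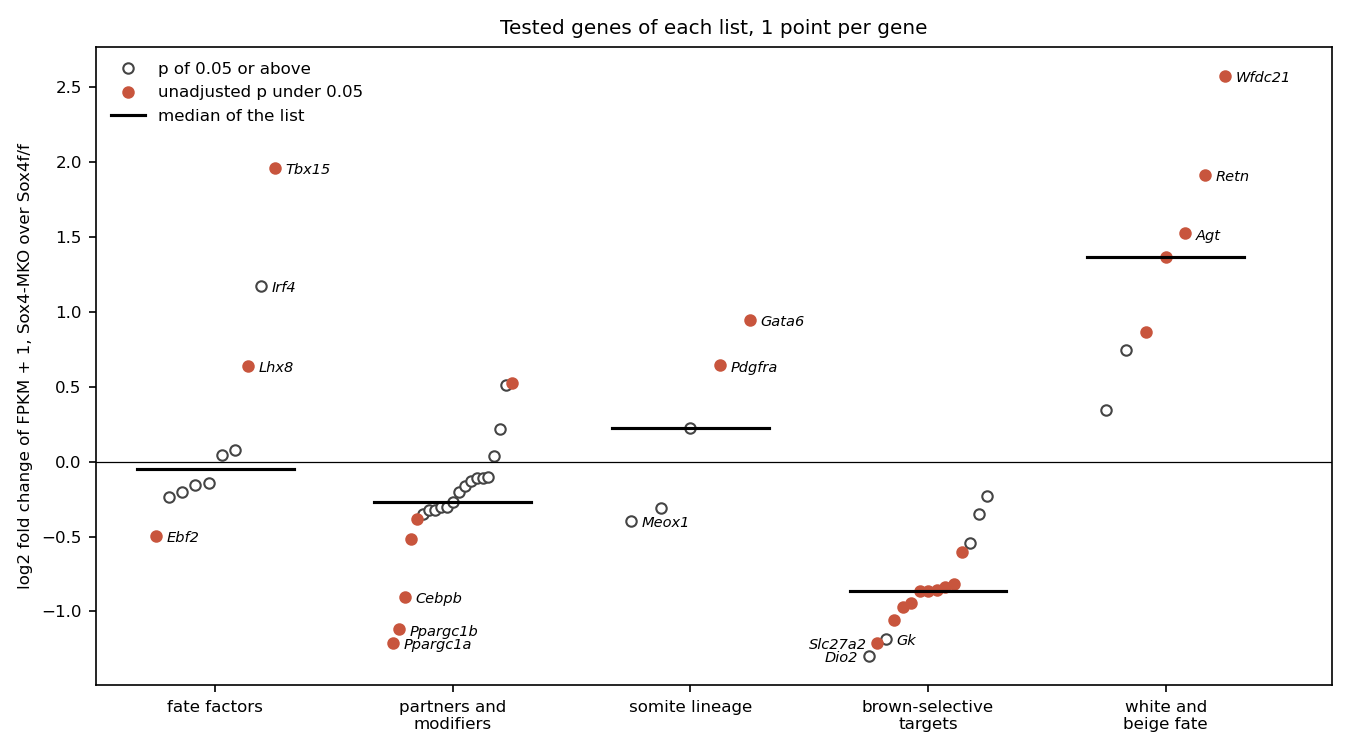
Log2 fold change of FPKM plus 1, mice labelled Sox4-MKO over Sox4f/f (vertical axis), for the tested genes of 5 lists, 1 point per gene. Filled points have an unadjusted p under 0.05 and the line is the list median, which is -0.05 for the fate factors, -0.86 for the brown-selective genes and 1.36 for the white and beige genes.

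Genes of the somite lineage, from which brown adipocytes descend, were tested in 5 of 10 cases, and the other 5 were below the FPKM limit. Of those tested, 2 were higher and 0 lower at an unadjusted p under 0.05 in limma. Over all tested genes, 7.95% were higher and 8.28% lower. Gata6, a transcription factor of early brown progenitors, had 0.81 and 0.79 FPKM in Sox4f/f and 2.41 and 2.51 FPKM in the mice labelled Sox4-MKO, without overlap and with little spread within a genotype (log2 fold change 0.94, unadjusted p of 0.00752). Its mean exceeded 1 FPKM only in the mice labelled Sox4-MKO, so it entered the test through the genotype in which it is high. With no FPKM limit the list also had 2 higher and 0 lower genes. Pdgfra, the receptor that marks adipose progenitors, had 4.22 and 5.07 FPKM against 7.17 and 8.44 FPKM (log2 fold change 0.64, unadjusted p of 0.0176). Meox1, a somite homeobox gene, had 2.33 and 4.03 FPKM against 1.67 and 2.61 FPKM and did not pass. The count of higher genes fell in some fits with 1 library left out, which leave 1 mouse in a genotype. Markers of adipose progenitors moved with these genes. Each of the 7 progenitor markers, Pdgfra among them, was higher at an unadjusted p under 0.05 in limma, beside 7.95% of all tested genes. Their summed FPKM was 280 and 315 in Sox4f/f and 556 and 509 in the mice labelled Sox4-MKO.

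The summed FPKM of 8 general adipocyte markers was 11434 and 11898 in Sox4f/f and 9859 and 13078 in the mice labelled Sox4-MKO, which enclosed the controls. Fabp4, the fatty acid binding protein of adipocytes, made up a large part of this sum, with 5416 to 7518 FPKM. Of the 8 markers, 4 were lower without overlap, beside 29.6% of all tested genes. Of these, 2 (Pnpla2 and Lipe, both lipases) had an unadjusted p under 0.05 in limma, beside 8.28% of all tested genes called lower. By either rule 0 were higher, and the median log2 fold change was -0.19, against -0.05 over all tested genes. Endothelial markers summed to 178 and 202 in Sox4f/f and 129 and 171 in the mice labelled Sox4-MKO, mural markers to 174 and 197 against 146 and 201, and Schwann and nerve markers to 44.7 and 47.7 against 60.0 and 41.1. The part of a shift in cell types in the values of Ebf2, Lhx8 and Gata6 was not tested.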

How the data were processed

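RNA was prepared from brown fat of 4 mice, 2 per genotype, with 1 library each. The authors deposited FPKM per gene symbol, and their processing notes name Cufflinks 2.1.1, Cuffdiff and the mm10 build. The aligner and the annotation are not given in the sources used here. The values are not counts, so log2(FPKM + 1) was fitted with limma 3.58.1 (R 4.3.3, trended eBayes, genotype as the only term) for genes whose FPKM averaged over 1 in either genotype, as in the study's methods. p-values are two-sided, and the code was tested on simulated data. Nothing states that the mouse numbers pair littermates. The 10 factors, the lists of partners, targets and markers and the rule for named genes (each factor, each tested paralogue, the 3 largest differences per list, sums of markers) were chosen with earlier results of these data known. Ucp1, Myh4, Fabp4, Pnpla2 and Lipe were named after their values were seen. Positions are from GENCODE M21 by symbol. Fragment numbers were estimated from genes with 1 transcript of at least 1500 nt. Alternatives were other pseudocounts, limits and scalings, no moderation, a replicate block and leaving out each library.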

Additional observations from a re-analysis of the deposited data

How the results depend on the processing

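With 2 mice per genotype, p-values rest on little replication, and the depth behind each FPKM is only estimated. Of the 10 factors, 1 was lower and 2 were higher at an unadjusted p under 0.05. The number higher was 1 with an averaged FPKM above 5 (where 7 factors were tested), with quantile normalization, without moderation on logged and on unlogged FPKM, and with the replicate block, in which the correlation of same-numbered mice was -0.012 and Lhx8 had an unadjusted p of 0.0723. That 1 factor was Lhx8 without moderation and Tbx15 in the other settings named. The number lower was 0 after centring on adipocyte markers, where 154 of all tested genes but no factor passed the adjusted threshold. The number higher stayed at 2 there, but with Irf4 in place of Lhx8. Of all tested genes, an averaged FPKM above 5 left 986 lower and 684 higher, and no moderation on logged FPKM 935 and 553. Quantile normalization gave 1145 lower and 947 higher, and the replicate block 938 and 970. The lowest adjusted p of a factor in any analysis was 0.0555, for Tbx15 after centring on adipocyte markers. Leaving out 1 library gave 0 to 2 factors lower and 0 to 3 higher. It moved the log2 fold change of Ebf1 from -0.65 to 0.36, of Ebf3 from -0.11 to 0.20, of Prdm16 from -0.70 to 0.23, of Irf4 from -0.016 to 2.36 and of Zic1 from -0.24 to 0.40, and the Ebf2 share of the EBF sum from -11.5 to -0.43 points. Quantile normalization turned Zic1 to -0.063. The causes of these changes were not tested. Counts of genes in the pathway lists under these settings were added after the data were seen. The brown-selective genes kept between 6 and 12 lower and 0 higher.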
